A study of Mus musculus with 4 samples.

Results

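P2rx7 encodes P2X7, a cation channel that opens when ATP binds it from outside the cell. It was followed here with 8 genes grouped around extracellular ATP and NAD, in splenic mouse Treg cells. The cell type field of the labels names Treg cells, which are Foxp3-expressing CD4 T cells that restrain immune responses. Of the genes, P2ry10, P2ry6 and P2ry14 encode receptors for other ligands, given below. The members were taken by symbol from a table of read counts for 20837 genes: the channel genes P2rx7, P2rx4 and P2rx1, the receptor genes P2ry10, P2ry6 and P2ry14, the pannexin gene Panx1, and the NAD enzyme genes Art2b and Cd38. All 9 were present, and 8 had enough reads to be tested among 13861 genes. The cKO group holds 2 libraries of genotype Foxp3YFP-CreKmt2dfl/fl, in which the Foxp3 locus drives Cre against a loxP-flanked Kmt2d, a histone methyltransferase gene. The WT group holds 2 libraries of genotype Foxp3YFP-CreKmt2d+/+, so that both groups carry the Foxp3 YFP-Cre allele. No label says that libraries of 1 group stem from different mice, so the p-values cover library-to-library spread, possibly technical only. Age and sex were, for these mice, not given in the sources used here.

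The question, from the study's title, is how P2X7 relates to KMT2D in Treg cells. In T cells P2X7 has a pair of triggers. High ATP opens it directly. NAD can open it through the ectoenzyme ART2.2, the product of Art2b, which attaches ADP-ribose from NAD to the channel. CD38 consumes extracellular NAD and so competes with ART2.2. Prolonged opening leads to shedding of surface proteins, exposure of phosphatidylserine and death, and mouse Treg cells are known for their sensitivity to it.

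Depth was high for most members. Total counts ran from 28442416 to 35560491 per library. A floor set at 3 counts corresponds to 0.0864 to 0.103 CPM (counts scaled to library size with TMM factors). Kmt2d itself measured 836 and 793 CPM in the cKO libraries and 721 and 704 CPM in the WT libraries, log2 fold change 0.19 (SE 0.05, edgeR quasi-likelihood adjusted p = 0.0375). Since reads of undeleted exons count as well, this value is no check of the deletion. With RLE scaling the call is lost (edgeR adjusted p = 0.0556), as it is when any 1 library is left out (edgeR adjusted p = 0.237 without cKO 1, 0.0951 without cKO 2, 0.109 without WT 1 and 0.148 without WT 2). The extraction text in the labels describes cultured macrophages of another knockout, against the tissue, cell type and genotype fields. T cell transcripts were abundant. The 14 pan T cell markers summed to 5592 and 6055 CPM in cKO and 7384 and 7047 CPM in WT. Of these markers 10 were called lower, beside 15.1% of all tested genes. The 12 macrophage markers summed to 449 and 306 CPM in cKO and 379 and 593 CPM in WT. Of single genes, Cd3e lay between 367 and 404 CPM in the 4 libraries, and the macrophage receptor gene Csf1r between 84.1 and 151 CPM.

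Of the 8 tested members, 3 were lower in the cKO libraries (P2rx7, P2ry10 and Cd38), 1 was higher (P2ry6) and 4 did not pass (edgeR quasi-likelihood test, adjusted p under 0.05). Among all tested genes 15.1% were called lower and 16.5% higher, 31.6% in all. The cKO and WT libraries did not overlap for 6 of the 8 tested members, beside 66% of all tested genes. In 4 of them cKO lay below WT (30.9% of all tested genes) and in 2 above (35.1%). With 8 genes these shares are coarse, and the results below rest on the single genes.

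**Figure D1:**
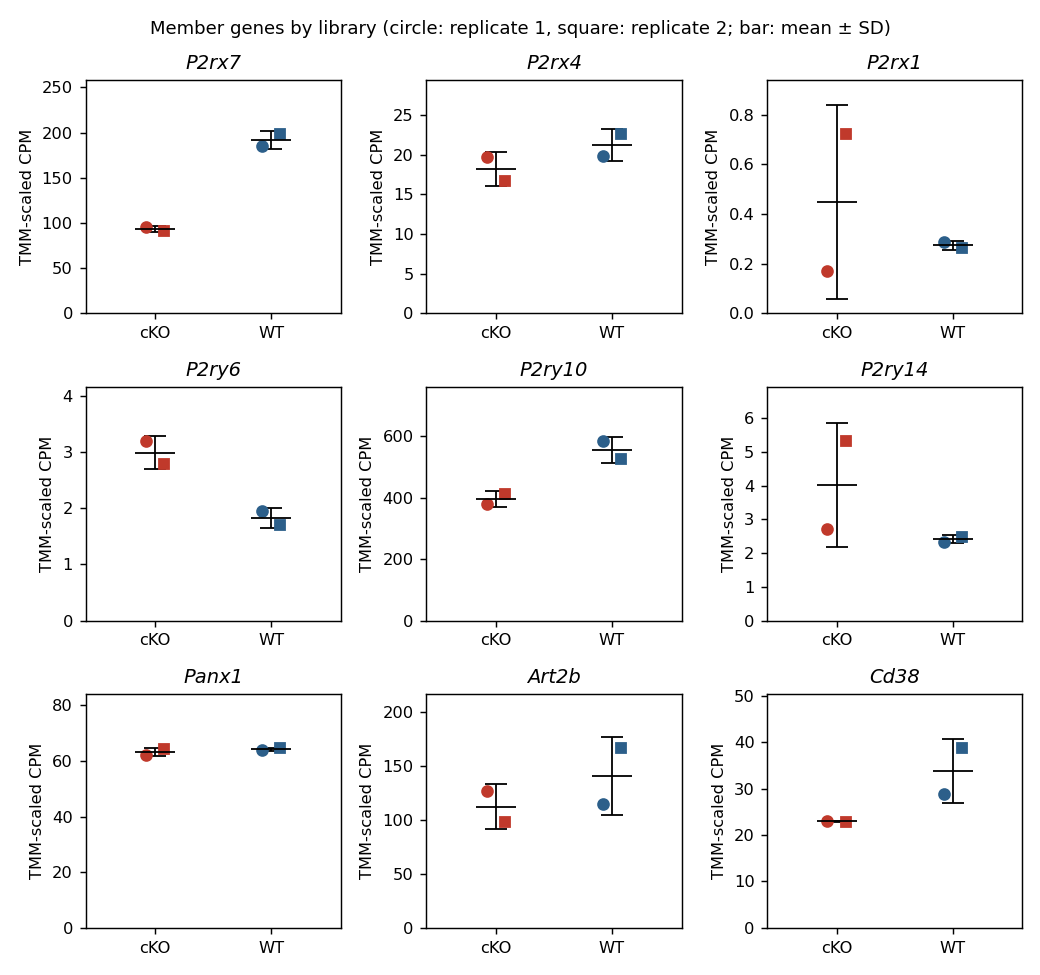
TMM-scaled CPM of the 9 member genes (vertical axes, each from 0), with the 2 cKO libraries left and the 2 WT libraries right. Points are libraries and bars are the mean ± SD. P2rx7 lies between 91.5 and 95.9 CPM in cKO and between 185 and 199 CPM in WT, while Panx1 lies between 62.2 and 64.6 CPM in all 4 libraries.

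P2rx7 was the most changed member. It had 2789 and 3158 reads in the cKO libraries and 6415 and 6060 reads in the WT libraries. Scaled, these are 95.9 and 91.5 CPM in cKO against 185 and 199 CPM in WT. Both cKO libraries lay far below both WT libraries, and the cKO mean was 48.8% of the WT mean. The log2 fold change was -1.03 (SE 0.06, 95% interval -1.18 to -0.89, edgeR quasi-likelihood adjusted p = 0.00205). Counting error alone gives a relative SD of 1.25% to 1.89% for P2rx7 in a library, so depth does not limit this value. Leaving out each library in turn gave log2 fold changes from -1.09 to -0.98. In bulk RNA, fewer cells that carry a transcript and less of it per cell cannot be told apart.

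P2rx7 was also lower relative to other T cell transcripts, which differed in these libraries as well. The summed level of 14 pan T cell markers was 5592 and 6055 CPM in cKO and 7384 and 7047 CPM in WT. Of the 14 markers 10 were called lower, beside 15.1% of all tested genes. Per 1000 CPM of these markers, P2rx7 measured 17.2 and 15.1 CPM in cKO and 25.0 and 28.2 CPM in WT. Per CPM of Foxp3, it measured 0.565 and 0.508 in cKO and 0.666 and 0.795 in WT. In both ratios the groups did not overlap. Foxp3 itself was lower in cKO (170 and 180 CPM, against 278 and 250 CPM in WT). When the libraries were scaled to the summed pan T cell markers, which moves the median of all genes to 0.31, the log2 fold change of P2rx7 was -0.72 (edgeR adjusted p = 0.00146).

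P2rx7 lies on the forward strand of mouse chromosome 5 (gene number 18439, mm10, 122643927 to 122692336). RefSeq annotates a pair of start sites, 6.46 kb apart, the second inside the gene. P2rx4 follows on the same strand after a gap of 15.2 kb. A count per gene sums the transcripts of both starts, so these data do not say which P2rx7 transcript was lower. The 200 bases upstream of each start (RefSeq, GRCm38.p6, forward strand, 30 bases before the start left out) are shown because P2rx7 fell while its neighbour P2rx4 did not pass, with CG dinucleotides in capitals.
P2rx7, first start, chr5:122643697-122643896: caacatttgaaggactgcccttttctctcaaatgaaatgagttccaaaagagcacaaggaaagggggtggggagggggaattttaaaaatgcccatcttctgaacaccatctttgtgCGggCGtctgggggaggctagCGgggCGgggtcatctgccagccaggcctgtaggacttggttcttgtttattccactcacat
P2rx7, second start, chr5:122650153-122650352: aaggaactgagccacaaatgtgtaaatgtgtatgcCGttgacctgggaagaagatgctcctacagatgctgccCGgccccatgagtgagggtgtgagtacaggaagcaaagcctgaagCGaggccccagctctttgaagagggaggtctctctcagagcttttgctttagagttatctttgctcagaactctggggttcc
P2rx4, chr5:122707314-122707513: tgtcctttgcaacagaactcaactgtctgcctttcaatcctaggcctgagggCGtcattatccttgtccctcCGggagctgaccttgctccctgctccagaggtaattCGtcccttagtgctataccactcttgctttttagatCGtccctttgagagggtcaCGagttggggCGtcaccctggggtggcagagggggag

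The windows hold 4 CG dinucleotides at the first P2rx7 start, 3 at the second and 6 at P2rx4, beside a median of 4 over 32851 such windows of all annotated starts. In all, 7 motifs were searched on both strands. The GC box GGGCGG matched once, at the first P2rx7 start, and is found in 27.7% of all windows. The forkhead motif TGTTTAC (2.52% of all windows), the ETS motif CCGGAAG (4.77%), the Runx motif TGTGGTT (3.60%), the CRE motif TGACGTCA (1.12%), the AP-1 motif TGANTCA (5.59%) and TATAAA (8.92%) had no match in these 3 windows. A match or its lack describes only these letters.

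P2rx4 encodes P2X4, an ATP-gated channel of higher ATP affinity than P2X7. It measured 19.7 and 16.7 CPM in cKO and 19.8 and 22.6 CPM in WT. The cKO libraries lay below the WT libraries by a narrow margin, with a log2 fold change of -0.22 that did not pass (SE 0.11, 95% interval -0.50 to 0.06, edgeR adjusted p = 0.197). With scaling to pan T cell markers the sign turned to 0.09. In RefSeq the annotated span of P2rx4 overlaps that of Camkk2, while in GENCODE the genes lie on opposite strands without overlap. If strand was not used in counting, their reads cannot be told apart in the overlap.

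P2rx1 encodes P2X1, a fast ATP-gated channel known from platelets and other blood cells. It had 5 and 25 reads in cKO and 10 and 8 reads in WT, too few for the test. The 25 reads of cKO 2 (exact Poisson 95% interval 16.2 to 36.9, counting error only) stand above the 5 reads of cKO 1 (1.62 to 11.7), and the groups overlap. The library with most P2rx1 reads, cKO 2, also had the highest summed neutrophil markers, and the part of those cells in the value was not tested. The 9 platelet and megakaryocyte markers summed to 53.1 and 52.9 CPM in cKO and 72.2 and 68.8 CPM in WT, most of it Itgb3. Of these markers 1 was called higher (16.5% of all tested genes), 1 lower (15.1%), 1 did not pass and 6 were too scarce to test. Their part in the P2rx1 value was not tested either.

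Other P2 receptor genes sit beside the members on their chromosomes, and 1 pair of paralogues moved in opposite directions. P2ry10 encodes a lysophosphatidylserine receptor of lymphocytes that is named for its similarity to nucleotide receptors. It measured 378 and 413 CPM in cKO and 584 and 525 CPM in WT. The cKO values were the lower pair, and P2ry10 fell with a log2 fold change of -0.49 (SE 0.07, edgeR adjusted p = 0.00746). Its paralogue P2ry10b, 44.0 kb away on chromosome X, measured 27.1 and 25.5 CPM in cKO and 15.4 and 15.6 CPM in WT. P2ry10b rose (log2 fold change 0.76, SE 0.07, edgeR adjusted p = 0.00404), again with no overlap. The paralogues share 3.79% of the 50-base words of P2ry10 transcripts and 3.27% of those of P2ry10b, so a small part of their reads could be split between them. The call of P2ry10 ends when libraries are scaled to pan T cell markers (log2 fold change -0.18, edgeR adjusted p = 0.0632). Per CPM of Foxp3 it measured 2.22 and 2.29 in cKO and 2.10 and 2.10 in WT, so that by this ratio the order of the groups turned.

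P2ry6 encodes a receptor for the nucleotide UDP that is known from macrophages. It was scarce, with 93 and 96 reads in cKO and 68 and 52 reads in WT, or 3.20 and 2.78 CPM in cKO and 1.96 and 1.71 CPM in WT. Both cKO libraries lay above both WT libraries, and P2ry6 rose (log2 fold change 0.70, SE 0.19, edgeR adjusted p = 0.0382). This call ends with DESeq2 (adjusted p = 0.286) and when any library is left out (edgeR adjusted p = 0.195 without cKO 1, 0.0942 without cKO 2, 0.102 without WT 1 and 0.162 without WT 2). Summed macrophage markers, 449 and 306 CPM in cKO and 379 and 593 CPM in WT, overlapped between the groups, and 12 of the 12 did not pass. Summed dendritic cell markers were higher in cKO (135 and 113 CPM) than in WT (74.6 and 85.9 CPM). Of these 7 markers 3 were called higher, beside 16.5% of all tested genes. The part of either cell type in the P2ry6 value was not tested.

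P2ry14 encodes a receptor for UDP and UDP-sugars. It measured 2.72 and 5.33 CPM in cKO and 2.33 and 2.49 CPM in WT. The difference lay mostly in cKO 2, since cKO 1 stood close to the WT libraries, and it did not pass (log2 fold change 0.75, SE 0.33, edgeR adjusted p = 0.145). Without cKO 2 the log2 fold change was 0.17, and without cKO 1 it was 1.14 and passed (edgeR adjusted p = 0.0210). It also passed with no low-count filter (edgeR adjusted p = 0.0251) and with scaling to pan T cell markers (0.0178). Summed neutrophil markers were likewise highest in cKO 2, with 632 and 1352 CPM in cKO and 73.5 and 196 CPM in WT. All 12 of 12 were called higher, beside 16.5% of all tested genes. The part of neutrophils in the P2ry14 value was not tested. The neutrophil gene Ly6g, at 0.0576 and 0.0328 CPM in WT, lay below the level of 3 counts (0.0864 and 0.0984 CPM), unlike the summed markers. P2ry14 lies within the span of Med12l on the opposite strand. Med12l had 40 and 74 reads in cKO and 66 and 42 reads in WT, and no exons of the pair overlap in GENCODE. If strand was not used in counting, reads from Med12l introns and from P2ry14 exons cannot be told apart.

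The ADP receptor genes next to P2ry14 on chromosome 3 did not pass. P2ry13, 54.4 kb from P2ry14, measured 5.36 and 3.97 CPM in cKO and 5.07 and 7.78 CPM in WT (log2 fold change -0.46, edgeR adjusted p = 0.234). P2ry12 measured 1.62 and 1.27 CPM in cKO and 2.05 and 2.66 CPM in WT (log2 fold change -0.70, edgeR adjusted p = 0.0751). P2ry1, a further ADP receptor gene, measured 1.65 and 1.33 CPM in cKO and 0.692 and 0.984 CPM in WT (log2 fold change 0.83, edgeR adjusted p = 0.0744). With no low-count filter P2ry12 and P2ry1 pass (edgeR adjusted p = 0.0301 and 0.0411). That setting moved adjusted p-values at nearly unchanged fold changes. P2rx7 had an edgeR adjusted p of 1.67e-10 at -1.04, while that of Gsdmd rose to 0.0938 at 0.16. Across the list of 16 P2 receptor genes, 9 were tested: 2 rose, 2 fell and 5 did not pass. Among all tested genes 16.5% were called higher and 15.1% lower. The median log2 fold change of the list was -0.22, beside 0.00031 for all tested genes. The list had 1 lower and 4 higher relative to pan T cell markers, beside 770 genes lower and 6360 higher over all genes. Of this list P2ry10b and P2ry14 were called higher without cKO 1, and P2ry10b alone without cKO 2, WT 1 or WT 2. The 6 that were too scarce to test were P2rx1, P2rx3, P2rx5, P2rx6, P2ry2 and P2ry4, and P2rx2 was not analysed here.

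Panx1 encodes pannexin 1, a membrane channel through which cells release ATP and which is linked to P2X7 in many cell types. It measured 62.2 and 64.1 CPM in cKO and 63.8 and 64.6 CPM in WT. The 4 libraries lay within a narrow range and the groups overlapped. The log2 fold change was -0.02 (SE 0.05, edgeR adjusted p = 0.798), and its 95% interval of -0.14 to 0.10 leaves room only for small differences at this scaling. With upper-quartile scaling the sign turned to 0.0048. Relative to pan T cell markers Panx1 was higher by 0.29 (edgeR adjusted p = 0.0219), close to the shift of the median of all genes at that scaling.

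Another ATP release gene did change. Slc17a9 encodes the vesicular nucleotide transporter, which loads ATP into secretory vesicles. It measured 27.5 and 30.8 CPM in cKO and 53.6 and 48.6 CPM in WT. The groups stood well apart, and Slc17a9 fell with a log2 fold change of -0.81 (SE 0.08, edgeR adjusted p = 0.00428). Lrrc8a, a subunit of the volume-regulated anion channel, fell as well (log2 fold change -0.29, SE 0.08, edgeR adjusted p = 0.0354), a call lost without cKO 1 (edgeR adjusted p = 0.157), WT 1 (0.0731) or WT 2 (0.154) and with DESeq2 (0.0753), and with scaling to pan T cell markers its sign turned to 0.02. Calhm2 had a log2 fold change of 0.25 (edgeR adjusted p = 0.146), and one of 0.56 that passed relative to pan T cell markers (edgeR adjusted p = 0.0163). The connexin gene Gjb2 had one of -0.04 (edgeR adjusted p = 0.922), which turned to 0.03 without cKO 1, to 0.27 without WT 1 and to 0.28 with scaling to pan T cell markers. Of 6 tested genes for nucleotide release 2 fell and 4 did not pass (median log2 fold change -0.03). Among all tested genes 15.1% were called lower and 16.5% higher. Relative to pan T cell markers 1 of the list was lower and 2 were higher, beside 770 genes lower and 6360 higher over all genes. Panx2, Gja1 and Gjc1 were too scarce to test, and Panx3 and Calhm1 were not analysed here.

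Art2b encodes ART2.2, the enzyme that lets NAD open P2X7 on mouse T cells. It measured 127 and 98.0 CPM in cKO and 115 and 167 CPM in WT. Libraries of 1 group differed from each other as much as the groups did, and the groups overlapped. The log2 fold change of -0.33 did not pass (SE 0.20, 95% interval -0.81 to 0.16, edgeR adjusted p = 0.278). It depended on the library left out: -0.53 without cKO 1, -0.15 without cKO 2, -0.57 without WT 1 and -0.04 without WT 2. With no low-count filter it passed (edgeR adjusted p = 0.0457). Art2b shares 5.02% of the 50-base words of its transcripts with Art2a, annotated as Art2a-ps in GENCODE, which was not analysed here, so a part of its reads is uncertain.

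Cd38 encodes the NAD glycohydrolase CD38, which removes extracellular NAD and also marks activated and B lineage cells. It measured 23.0 and 22.8 CPM in cKO and 28.9 and 38.7 CPM in WT. The cKO libraries were nearly equal and lay below both WT libraries, of which WT 2 was the higher. Cd38 fell with a log2 fold change of -0.56 (SE 0.14, edgeR adjusted p = 0.0306). The call ends without cKO 1 (edgeR adjusted p = 0.0737), cKO 2 (0.0736) or WT 2 (0.0545, log2 fold change -0.33), and relative to pan T cell markers (-0.25, edgeR adjusted p = 0.205). Summed macrophage markers were also highest in WT 2, at 593 CPM, and their part in the Cd38 value was not tested. B cell markers summed to 200 and 318 CPM in cKO and 156 and 189 CPM in WT. Of these 10 markers 2 were called higher, near the 16.5% of all tested genes, and 8 did not pass. The part of B cells in the Cd38 value was not tested.

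Bst1, a relative of Cd38 that lies 25.3 kb away, stood the other way. It measured 2.13 and 1.39 CPM in cKO and 0.720 and 1.15 CPM in WT. Both cKO libraries were above both WT libraries, and the log2 fold change of 0.91 did not pass (SE 0.34, edgeR adjusted p = 0.0967). It passed with no low-count filter (edgeR adjusted p = 0.0265) and with scaling to pan T cell markers (0.0222). The ART relatives of Art2b were scarce. Art3 had 19 and 44 reads in cKO and 149 and 121 reads in WT, and fell with a log2 fold change of -2.07 (SE 0.30, edgeR adjusted p = 0.00666). Art4 had 18 and 26 reads in cKO and 53 and 44 reads in WT, and fell with one of -1.10 (SE 0.25, edgeR adjusted p = 0.0217). Enpp1, an ectoenzyme that cleaves ATP and NAD, measured 22.8 and 24.0 CPM in cKO and 30.2 and 28.2 CPM in WT and fell by 0.32 (SE 0.07, edgeR adjusted p = 0.0231).

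On a list of extracellular NAD enzymes and related genes 7 were tested, with a median log2 fold change of -0.33. Of these 4 fell (Art3, Art4, Cd38 and Enpp1) and 3 did not pass (Art2b, Bst1 and Sarm1). Among all tested genes 15.1% were called lower and 16.5% higher. Whether each product of the list acts on NAD outside the cell was not tested. Scaled to pan T cell markers, 2 of the list were called lower and 1 higher, beside 770 genes lower and 6360 higher over all genes. Art1, Art5 and Enpp3 were too scarce to test. The fall of Art3 held in each alternative that tested it. Those of Art4, Cd38 and Enpp1 did not: 1 of the list was called lower without cKO 1 and without cKO 2, and 2 without WT 1 and without WT 2. For Art4 the edgeR adjusted p was 0.126 without cKO 1, 0.0760 without cKO 2, 0.120 without WT 1 and 0.0816 without WT 2, and 0.208 with DESeq2. For Enpp1 it was 0.115 without cKO 1, 0.0583 without cKO 2, 0.118 without WT 1 and, with DESeq2, 0.0678. Relative to pan T cell markers Enpp1 differed by only -0.0076 on the log2 scale (edgeR adjusted p = 0.952).

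**Figure D2:**
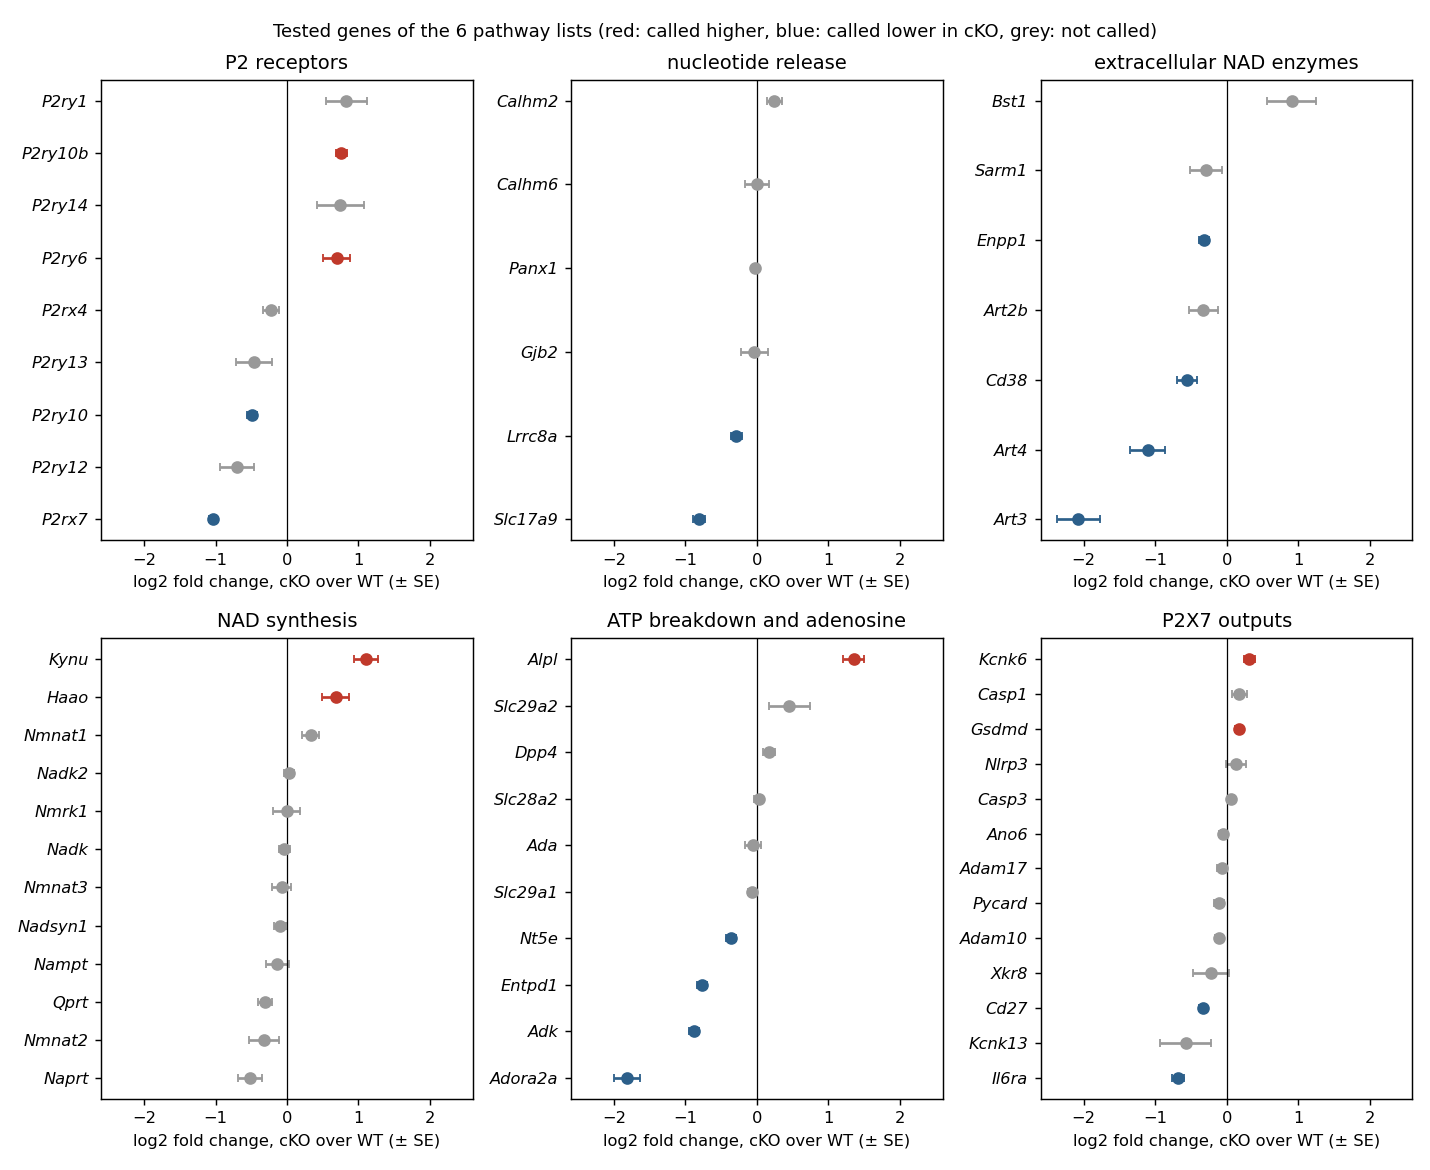
Log2 fold change of cKO over WT with its SE (horizontal axis) for each tested gene of the 6 pathway lists. Red points were called higher in cKO, blue points lower and grey points neither. P2rx7 at -1.03 is the lowest gene of the P2 receptor list, and Art3 at -2.07 the lowest of the extracellular NAD list.

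Of 12 tested genes on the list of NAD synthesis, which also holds the NAD kinase genes Nadk and Nadk2, 2 rose and 10 did not pass. The median log2 fold change of the list was -0.06, and 31.6% of all tested genes were called. With scaling to pan T cell markers 4 of the list were called higher, beside 6360 over all genes. Kynu, which encodes kynureninase of the kynurenine route from tryptophan, measured 7.05 and 5.71 CPM in cKO and 2.77 and 3.15 CPM in WT. Kynu rose (log2 fold change 1.11, SE 0.17, edgeR adjusted p = 0.00791) with no overlap between the groups. Haao, a further enzyme of that route, rose by 0.68 (SE 0.19, edgeR adjusted p = 0.0424), a call lost without cKO 1 (edgeR adjusted p = 0.0825), cKO 2 (0.196), WT 1 (0.173) or WT 2 (0.0514) and with DESeq2 (0.184). Naprt, which uses nicotinic acid, had a log2 fold change of -0.52 (edgeR adjusted p = 0.0597) and Qprt, which uses quinolinate, one of -0.30 (0.0646), both past the threshold with no low-count filter (0.0332 and 0.0475). Relative to pan T cell markers Qprt stood at 0.0024. The salvage enzyme gene Nampt had 98.7 and 126 CPM in cKO and 140 and 107 CPM in WT, which overlap.

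Genes that break down ATP and handle adenosine gave 4 falls, 1 rise and 5 not passing among 10 tested (median log2 fold change -0.06). Among all tested genes 15.1% were called lower and 16.5% higher. Relative to pan T cell markers, where most calls over all genes are rises (770 lower and 6360 higher), the list had 3 lower and 4 higher. Entpd1, which encodes the ATP-degrading enzyme CD39, measured 24.3 and 24.4 CPM in cKO and 39.5 and 43.2 CPM in WT, and Adora2a, an adenosine receptor gene, 26.9 and 34.5 CPM in cKO and 126 and 91.4 CPM in WT. Adk, which phosphorylates adenosine, had 23.4 and 25.0 CPM in cKO and 46.3 and 42.6 CPM in WT. Nt5e, which encodes CD73, fell by 0.36 (SE 0.07, edgeR adjusted p = 0.0128), a call lost without cKO 1 (edgeR adjusted p = 0.0527), WT 1 (0.0503) or WT 2 (0.0536) and relative to pan T cell markers (-0.06, 0.561). The one that rose was Alpl, an alkaline phosphatase gene also known from neutrophils, with 8.08 and 8.28 CPM in cKO and 3.49 and 2.89 CPM in WT (log2 fold change 1.36, SE 0.15, edgeR adjusted p = 0.00452). Neutrophil markers were higher in the same libraries, and their part in Alpl was not tested.

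Among 13 genes for proteins that P2X7 opening is known to engage, 2 rose, 2 fell and 9 did not pass (median log2 fold change -0.06). Over all tested genes 31.6% were called in either direction, and these counts are near that share. Relative to pan T cell markers 1 of the list was lower and 6 were higher, beside 770 genes lower and 6360 higher over all genes. Without any 1 library neither of the 2 rises was called. The sheddases Adam10 and Adam17 and the scramblase gene Ano6 did not pass. The genes that fell encode receptors that can be shed. Il6ra, the interleukin 6 receptor gene, measured 121 and 130 CPM in cKO and 215 and 187 CPM in WT and fell with a log2 fold change of -0.68 (SE 0.08, edgeR adjusted p = 0.00512). Cd27, a costimulatory receptor gene, fell by 0.33 (SE 0.06, edgeR adjusted p = 0.00931), a call lost without cKO 1 (edgeR adjusted p = 0.0547) or WT 1 (0.0512) and relative to pan T cell markers (-0.02, 0.793). Shedding acts on proteins, which these counts do not measure.

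The 2 rises were small. Kcnk6, a potassium channel gene linked to P2X7 in macrophages, rose by 0.32 (SE 0.08, edgeR adjusted p = 0.0288) and the pore-forming gasdermin gene Gsdmd by 0.17 (SE 0.05, edgeR adjusted p = 0.0456). The call of Kcnk6 was lost without cKO 1 (edgeR adjusted p = 0.167), cKO 2 (0.0859), WT 1 (0.111) or WT 2 (0.106) and with DESeq2 (0.233). That of Gsdmd was lost without cKO 1 (0.168), cKO 2 (0.265), WT 1 (0.150) or WT 2 (0.145), with RLE scaling (0.0642), with DESeq2 (0.319) and with no low-count filter (0.0938).

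**Figure D3:**
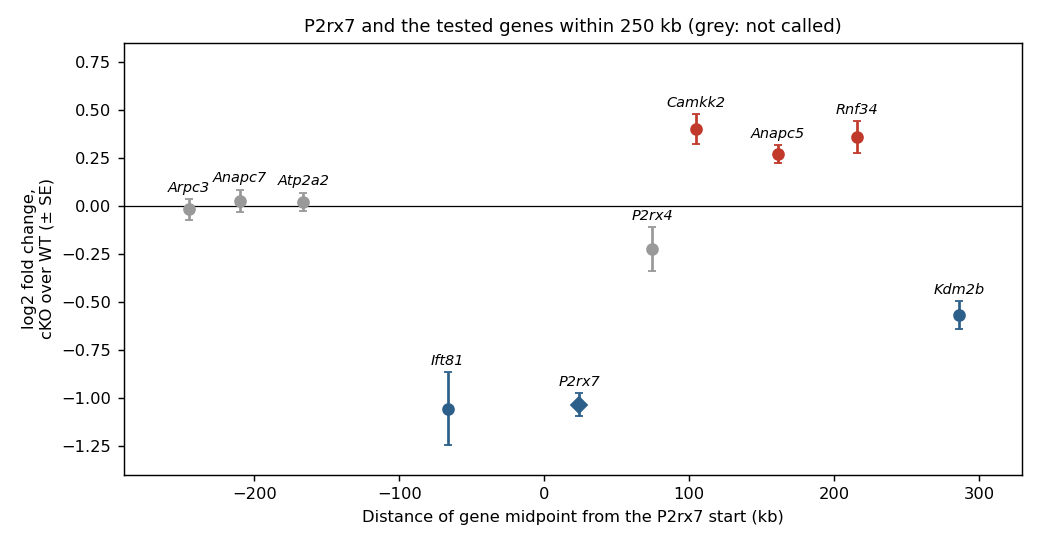
Log2 fold change of cKO over WT with its SE (vertical axis) against the distance of each gene's midpoint from the P2rx7 start in kb (horizontal axis). Red points were called higher in cKO, blue points lower and grey points neither; P2rx7 (diamond, -1.03) stands beside Ift81 at -1.06, P2rx4 at -0.22 and Camkk2 at 0.40.

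The genes around P2rx7 showed no common direction. RefSeq annotates 17 other genes within 250 kb of P2rx7, of which 9 were tested: 2 fell, 3 rose and 4 did not pass. Over all tested genes 15.1% were called lower and 16.5% higher, and with 9 genes such shares are coarse. Upstream, the closest tested gene was Ift81, an intraflagellar transport gene that ends 29.4 kb before P2rx7. It had 36 and 46 reads in cKO and 97 and 78 reads in WT and fell with a log2 fold change of -1.06 (SE 0.19, edgeR adjusted p = 0.0116). This is about the size of the P2rx7 change, at a level of 1.24 and 1.33 CPM in cKO against 2.79 and 2.56 CPM in WT. The call was lost without cKO 1 (edgeR adjusted p = 0.0640), without WT 1 (0.0723) and with DESeq2 (0.0756).

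Downstream, beyond P2rx4, the kinase gene Camkk2 measured 28.7 and 28.1 CPM in cKO and 20.4 and 22.6 CPM in WT and rose by 0.40 (SE 0.08, edgeR adjusted p = 0.0140; 0.0617 without cKO 1 and 0.0698 without WT 1). Anapc5, a subunit of the anaphase-promoting complex, rose by 0.27 (SE 0.05, edgeR adjusted p = 0.00998; 0.0596 without cKO 2 and 0.0547 without WT 1). The ubiquitin ligase gene Rnf34 rose by 0.36 (SE 0.08, edgeR adjusted p = 0.0232; 0.0843 without cKO 1, 0.0871 without cKO 2, 0.110 without WT 1 and 0.105 with DESeq2). Kdm2b, a histone demethylase gene, measured 79.9 and 84.4 CPM in cKO and 129 and 115 CPM in WT and fell with a log2 fold change of -0.57 (SE 0.07, edgeR adjusted p = 0.00549). On the far upstream side Atp2a2, Anapc7 and Arpc3 had log2 fold changes of 0.02, 0.03 and -0.02. Relative to pan T cell markers these 3 were higher by 0.33, 0.34 and 0.29 (edgeR adjusted p = 0.00777, 0.0169 and 0.0123), close to the shift of the median.

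The order of levels among the 9 members was the same in both groups when counts were scaled by exon length (CPM per kb of annotated exons, GENCODE M21). P2ry10 was highest, at 127 and 139 CPM per kb in cKO and 196 and 176 in WT. Art2b followed at 45.0 and 34.7 CPM per kb in cKO and 40.8 and 59.0 in WT, and P2rx7 at 16.1 and 15.3 CPM per kb in cKO and 30.96 and 33.3 in WT. Panx1 came next (10.3 and 10.6 CPM per kb in cKO, 10.6 and 10.7 in WT), then Cd38 (5.92 and 5.87 in cKO, 7.42 and 9.95 in WT) and P2rx4 (2.80 and 2.38 in cKO, 2.82 and 3.22 in WT). P2ry6, P2ry14 and P2rx1 were lowest, with no library above 1.11 CPM per kb. Neighbours in this order did not overlap in either group, except P2ry14 (0.246 and 0.482 CPM per kb) and P2rx1 (0.0655 and 0.276) in cKO. The authors' gene models are not known, so the lengths are approximate.

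Genes that varied most like P2rx7 over the 4 libraries were ranked by the Euclidean distance of log2 CPM, centred on each gene's mean, among 7067 genes of at least 20 CPM. The closest were Cd101, an inhibitory surface receptor gene (distance 0.104), Nbeal2, a BEACH domain gene (0.130), the exchange factor gene Vav2 (0.152), Frmd4b (0.157) and Als2cl (0.159). Their log2 fold changes ran from -1.06 for Als2cl to -0.97 for Vav2. With 4 libraries in 2 groups, likeness of this kind means little more than a similar fold change. In all, 423 genes were called lower with a log2 fold change at or below that of P2rx7.

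**Figure D4:**
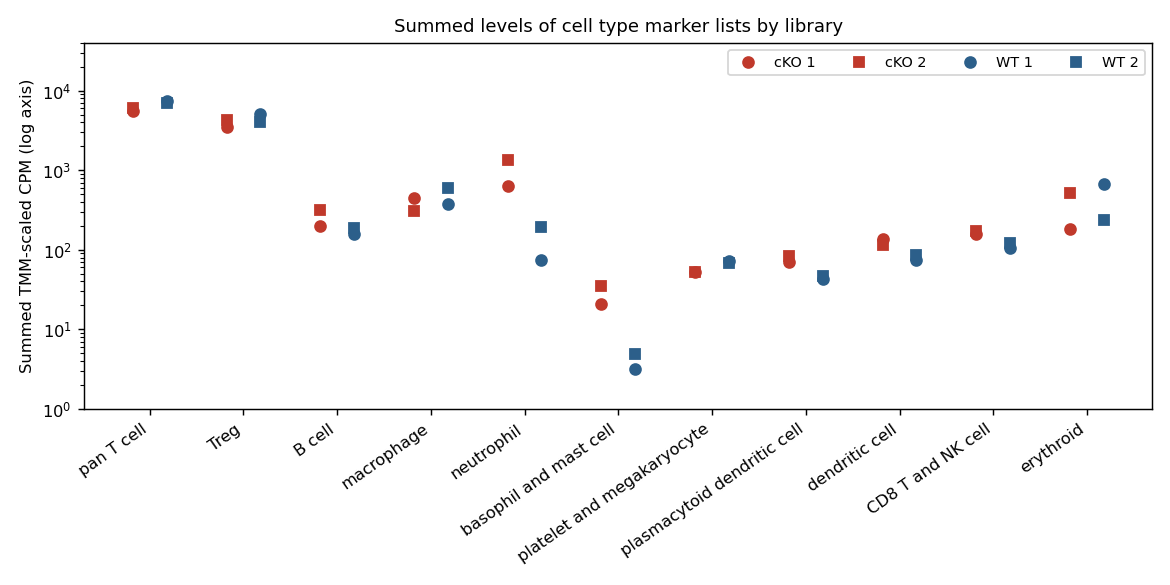
Summed TMM-scaled CPM of each cell type marker list (vertical log axis) in the cKO (red, left) and WT (blue, right) libraries, circles for replicate 1 and squares for replicate 2. Neutrophil markers reach 632 and 1352 CPM in cKO against 73.5 and 196 CPM in WT, whereas macrophage markers overlap between the groups.

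Markers of some other cell types moved with the groups. Those of macrophages did not, with 12 of 12 not passing. Platelet and megakaryocyte markers summed lower in cKO (53.1 and 52.9 CPM) than in WT (72.2 and 68.8 CPM). Basophil and mast cell markers summed to 20.7 and 35.3 CPM in cKO and 3.14 and 4.86 CPM in WT. Of these 6 of 7 were called higher, beside 16.5% of all tested genes. Plasmacytoid dendritic cell markers summed to 70.8 and 83.0 CPM in cKO and 42.8 and 47.0 CPM in WT (3 of 7 higher), and CD8 T and NK cell markers to 158 and 172 CPM in cKO and 104 and 121 CPM in WT (7 of 8 higher). Of 10 B cell markers 2 were called higher, near the 16.5% of all tested genes. Erythroid markers followed neither group, with 181 and 517 CPM in cKO and 669 and 239 CPM in WT. Of 12 Treg markers 6 were called lower and 1 higher, beside 15.1% and 16.5% of all tested genes. P2rx7 is also expressed by macrophages and other immune cells, and the part of other cells in its value was not tested.

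**Figure D5:**
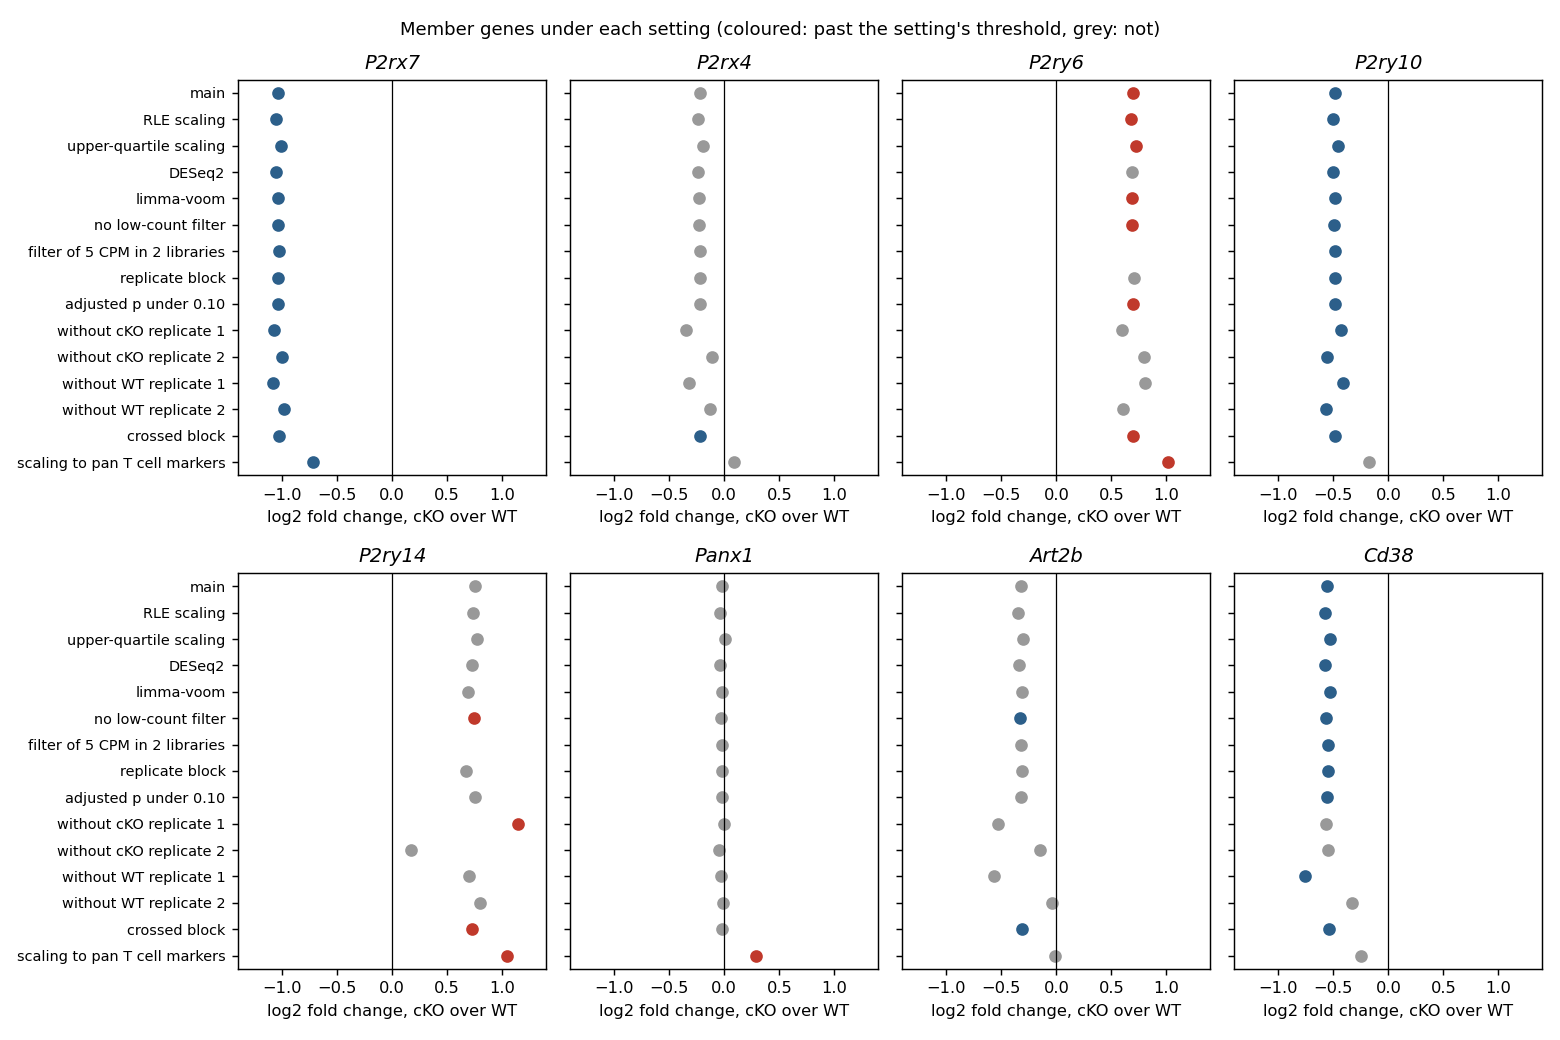
Log2 fold change of cKO over WT (horizontal axes) of the 8 tested members under the main setting and each alternative (rows). Coloured points pass the threshold of their setting and grey points do not; P2rx7 passes in all rows, from -1.09 to -0.72, while P2ry6 and Cd38 pass in some.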

How the data were processed

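A deposited table, named raw counts, holds whole-number counts per gene and library, made by the authors. The submitters' processing notes name the build, mm10; aligner, counter, annotation, kit and strand use were not given in the sources used here. Columns were matched to samples by title. Low genes were dropped by filterByExpr (at least 10 reads, 15 in total), leaving 13861 of 20837. The comparison used R 4.3.3 with edgeR 4.0.16 (TMM, glmQLFit, glmQLFTest, group alone, 2-sided, Benjamini-Hochberg over all tested genes, threshold 0.05). SE was derived from the log2 fold change and its F statistic. The test was also run on simulated data in which far fewer genes were changed than were called here. That run does not gauge its errors in these libraries. Alternatives were DESeq2 1.42.0, voom in limma 3.58.1, RLE or upper-quartile scaling, other filters, a block, a threshold of 0.10 and leaving out each library. Scaling to pan T cell markers and a crossed block were chosen after seeing the data. Members and lists were chosen with earlier results of these data known. Named were all members, of each pathway list the 4 other tested genes with the smallest p-values and any further called gene, all tested genes within 250 kb of P2rx7 and the 5 genes most like it. Ano6, Adam10, Adam17, Nampt and the marker genes named singly were chosen after their values were seen. Sarm1, Nadk and Nadk2 were named for their place on the lists. Gene spans and promoter windows come from RefSeq (GRCm38.p6, the assembly of mm10) and lengths, strands and transcripts from GENCODE M21. A promoter window was found for 8 members. A gene of the P2X7 output list is not reported here. Intervals from counts cover counting error only.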

Additional observations from a re-analysis of the deposited data

How the results depend on the processing

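P2rx7, P2ry10b, Slc17a9, Kynu, Entpd1, Adora2a, Adk, Alpl, Il6ra and Kdm2b kept their direction and call in each of the 14 alternatives run, and Art3 in the 13 that tested it. Among the 8 tested members 3 were lower and 1 higher in cKO. The higher count became 0 with DESeq2 (9 tested), with a filter of 5 CPM in 2 libraries (6 tested, P2ry6 not among them) and with the replicate block, 2 with no low-count filter, and ran from 0 to 1 without 1 library (P2ry14 without cKO 1); the lower count ran from 2 to 3 without 1 library. Over all genes, 2088 were lower and 2292 higher; DESeq2 gave 1301 higher, the replicate block 1141 lower and 1151 higher, and leaving out 1 library 983 to 1372 lower and 886 to 1375 higher. The labels do not say what the replicate numbers stand for, and the difference between replicates 1 and 2 in cKO correlated with that in WT at -0.323 across genes, so the numbers were not taken as pairs. Crossing them (cKO 1 with WT 2), added after seeing the data, called 5 members lower and 2 higher, and 3193 genes lower and 3520 higher. Scaling to pan T cell markers shifts every gene upwards by about 0.31: 1 member was then lower and 3 higher, and 770 genes lower and 6360 higher. Signs turned for P2rx4 (0.088), Panx1 (0.29), Lrrc8a (0.015), Gjb2 (0.28), Qprt (0.0024) and Arpc3 (0.29) under that scaling, for Panx1 (0.0048) and Arpc3 (0.011) with upper-quartile scaling, and without 1 library for Gjb2 (-0.29 to 0.27, above 0 without cKO 1 or WT 1), Arpc3 (-0.069 to 0.027, above 0 without cKO 1), Atp2a2 (-0.0042 to 0.041, below 0 without cKO 2) and Anapc7 (-0.015 to 0.071, below 0 without WT 2). Apart from Panx1 and Arpc3 under the pan T cell scaling, these did not pass in either setting or, for Lrrc8a, in the alternative; the cause was not tested. Depth limits P2rx1 and the genes under about 3 CPM.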
